A study of Mus musculus with 6 samples.

Results

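Mitochondria carry their own small circular genome, and its RNAs are counted in the same libraries as nuclear mRNA. The set described here is every row of the deposited count table whose gene symbol begins with mt-, which gave 37 of 45808 rows: 13 mRNAs, 2 ribosomal RNAs (rRNAs) and 22 transfer RNAs (tRNAs). The study sequenced RNA from T cells purified from the spleen of C57BL/6 mice aged 2 months and activated in culture with antibodies to CD3 and CD28 and with IL-2. It compared 3 wild-type (WT) libraries with 3 Drp1 knockout (KO) libraries, which shared background strain, age, tissue and activation. Drp1, encoded by Dnm1l, is the dynamin-related GTPase that divides mitochondria. The labels give neither the allele nor the promoter that drives the deletion, nor the number of animals, and nothing says that replicates came from separate mice or cultures. The p-values thus cover no more than the spread from library to library, and that spread may be technical.

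Transcription of the mitochondrial genome runs in long transcripts from each strand, driven by the mitochondrial RNA polymerase POLRMT with TFAM and TFB2M. Most mRNAs and both rRNAs lie between tRNA genes on the same transcript, and excision of the tRNAs frees them, a scheme known as tRNA punctuation. Levels of single mRNAs then depend also on polyadenylation, on the LRPPRC-SLIRP complex that protects mRNAs, and on decay. The mRNAs encode core subunits of complexes I, III and IV of the respiratory chain and of the ATP synthase (complex V), whose other subunits come from the nucleus. In activated T cells these complexes work beside a raised glycolysis.

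Of the 37 genes, 11 had enough counts to be tested: 7 mRNAs, both rRNAs and 2 tRNAs. A further 10 had some counts but too few to test, and 16 were listed at 0 in all 6 libraries. Those at 0 were 5 mRNAs (mt-Co2, mt-Co3, mt-Atp6, mt-Atp8 and mt-Nd4l) and 11 tRNAs. The sixth untested mRNA, mt-Nd3, had 2 counts in all, 1 in WT replicate 3 and 1 in KO replicate 3. Before any comparison of genotypes, the sequences were therefore examined for what these genes share.

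The 6 mRNAs with almost no counts lie side by side on the mitochondrial genome, from mt-Co2 (chrM:7013-7696) to mt-Nd4l (chrM:9877-10173; GENCODE M21 positions on mm10). A block of 7 unprocessed pseudogenes on the minus strand of chromosome 1, chr1:24611535-24616197, holds copies of parts of 7 mitochondrial genes between chrM:6390 and chrM:11042, in the same order. The aligned parts run from inside mt-Co1 to inside mt-Nd4, and the bases between the pseudogenes were not compared. Its copies of mt-Co2 (Gm28661, 681 aligned bases), mt-Atp6 (Gm10925, 678), mt-Co3 (Gm28437, 783), mt-Nd4l (Gm10222, 294) and mt-Nd4 (Gm28439, 876) had no mismatch to the mitochondrial gene over the aligned bases. The copy of mt-Co1 (Gm29216, 483 aligned bases) was 99.8% identical and that of mt-Nd3 (Gm28438, 345 aligned bases) 99.7%. The lines that follow show the mitochondrial bases at both ends of that range, with capitals for those inside the aligned parts.
mt-Co1, chrM:6360-6419: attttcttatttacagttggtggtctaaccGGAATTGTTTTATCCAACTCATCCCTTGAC
mt-Nd4, chrM:11013-11072: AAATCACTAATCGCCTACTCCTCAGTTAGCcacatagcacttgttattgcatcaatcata

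Only 1 base separated mt-Nd3 from its copy over the aligned part, T3C, counted from 1 at the 5′ end of the gene and given as the mitochondrial base, the position and the base of the copy. It is in capitals in the starts of both genes, shown because no other base separates this pair.
mt-Nd3, chrM:9459-9481: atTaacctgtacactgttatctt
Gm28438, chr1:24613097-24613119: atCaacctgtacactgttatctt

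mt-Co1 also has a full-length but less similar copy on chromosome 2, Gm13340, with 97.6% identity over 1545 bases and 37 substitutions. A stretch of 60 bases in which all 3 sequences can be set side by side follows. It was picked for the most differences of Gm13340, so it overstates the distance of that copy. The 1 substitution of Gm29216 over its aligned part, A1066T, lies outside the stretch. Capitals mark bases that differ from mt-Co1, of which Gm29216 has 0 in this stretch and Gm13340 has 3.
mt-Co1, chrM:6448-6507: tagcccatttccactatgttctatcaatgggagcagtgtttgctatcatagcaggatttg
Gm29216, chr1:24616071-24616130: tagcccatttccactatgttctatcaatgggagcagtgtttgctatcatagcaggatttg
Gm13340, chr2:22588468-22588527: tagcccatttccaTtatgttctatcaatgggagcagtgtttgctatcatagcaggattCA

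To put a size on this sharing, every run of 100 bases of each mitochondrial gene was looked up in all other annotated transcripts. The share of runs with an exact match elsewhere was 99.5% for mt-Co2, 99.5% for mt-Atp6, 99.9% for mt-Co3, 97.6% for mt-Nd3 and 98.5% for mt-Nd4l. It was 60.8% for mt-Nd4, 30.8% for mt-Co1 and 3.2% for mt-Nd2. At this length the share was 0.0% for mt-Rnr1, mt-Rnr2, mt-Nd1, mt-Nd5, mt-Nd6 and mt-Cytb. All genes of this last group had counts in every library, whereas the 5 genes with nearly all of their runs matched elsewhere had 2 counts between them. Because the read length is not given, runs of 50 bases were looked up too, and 51.1% were matched for mt-Co1, 62.2% for mt-Nd4, 8.2% for mt-Nd2, 7.6% for mt-Nd5 and 1.0% for mt-Rnr2.

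mt-Atp8 (chrM:7766-7969) is the exception to that order: it was listed at 0, but no other annotated transcript matched its runs. All of it but the last 43 bases, which are also part of mt-Atp6, lies in the 233 bases between the copied parts of mt-Co2 and mt-Atp6. The copies on chromosome 1 are also 233 bases apart. The chromosome 1 sequence of that gap was not used here. The 5 tRNA genes inside the range (mt-Ts1, mt-Td, mt-Tk, mt-Tg and mt-Tr) were all listed at 0, against 6 of the 17 tRNA genes outside it. No other annotated transcript matched runs of 50 bases of these 5. How reads that match more than 1 place were treated is not given in the sources used here, and the part of the copies in the zeros was not tested. A count of 0 in these libraries is compatible with up to 3 counted reads, 0.084 to 0.128 CPM, a level scaled to library size with the TMM composition factor, and it says nothing of reads that were left uncounted.

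The pseudogenes themselves drew few counts. Gm29216 had 30, 14 and 12 counts in WT and 11, 7 and 5 in KO, and Gm13340 had 66, 51 and 53 in WT and 49, 39 and 59 in KO. Gm13341, the chromosome 2 copy of mt-Co2, had 15, 14 and 15 counts in WT and 8, 20 and 16 in KO. These are small beside mt-Co1, which had 215386 to 252412 counts per library.

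**Figure D1:**
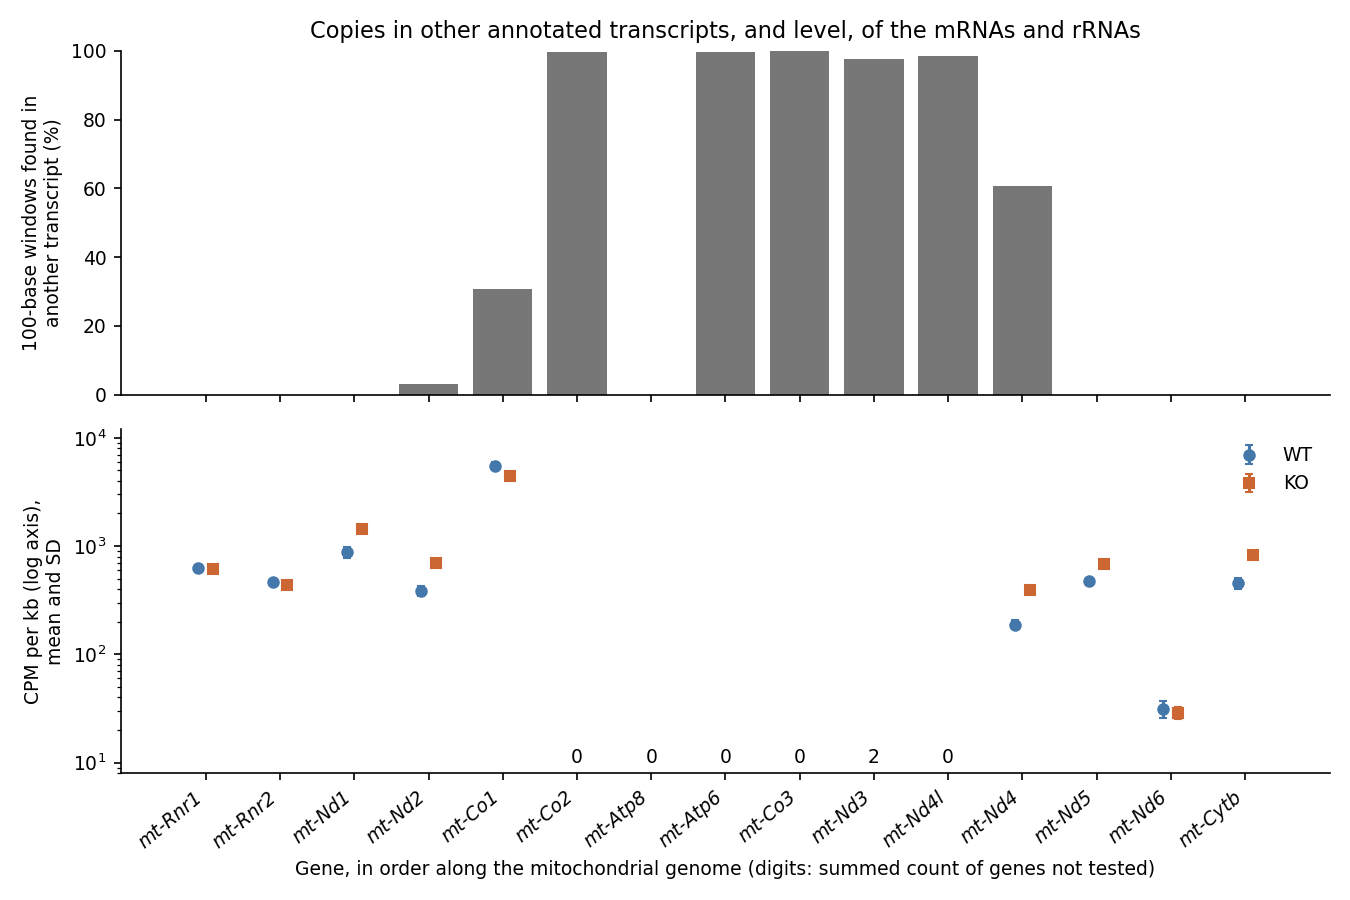
Upper panel: the percent of all 100-base runs of each mitochondrial mRNA and rRNA that occur exactly in another annotated transcript, in order along the genome. Lower panel: mean CPM per kb of gene length with SD over 3 libraries (log axis; circles WT, squares KO), with the summed count of 6 libraries printed for genes not tested; the gap runs from mt-Co2 to mt-Nd4l.

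Neighbouring genes also overlap on the mitochondrial genome itself, which limits what a gene count can assign. mt-Atp8 and mt-Atp6 share 43 bases and mt-Nd4l and mt-Nd4 share 7, on the same strand. mt-Nd5 and mt-Nd6 share 14 bases on opposite strands, and mt-Nd6 is the only mRNA on the minus strand. In the lines that follow, capitals mark bases that belong to both genes.
mt-Atp8 into mt-Atp6, chrM:7917-7979: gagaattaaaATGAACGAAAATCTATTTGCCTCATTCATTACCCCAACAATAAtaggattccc
mt-Nd4l into mt-Nd4, chrM:10147-10193: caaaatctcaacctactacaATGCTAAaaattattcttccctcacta
mt-Nd5 into mt-Nd6, in the sense of mt-Nd5, chrM:13532-13585: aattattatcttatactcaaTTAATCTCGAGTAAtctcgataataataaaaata

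The libraries held 24738017 to 34730475 counts, and mitochondrial genes took 312981 to 450380 of them. The targeted gene, Dnm1l, stood at 116.6 to 123.1 CPM in WT and 92.56 to 100.6 CPM in KO (log2 fold change -0.32 ± 0.05 SE, adjusted p = 0.000728, edgeR's quasi-likelihood test with Benjamini-Hochberg adjustment; -0.29 without WT replicate 1). The transcript was thus still read in KO, and which part of the gene was deleted is not given. WT replicate 1 stood apart from the other WT libraries, with a chi-square per gene of 11.9 and 13.2 against them, while replicates 2 and 3 gave 2.54. Fold changes, class differences, ratios and counts of nuclear genes are therefore also given without WT replicate 1. Among all 14209 tested genes, 7513 (52.9%) passed an adjusted p of 0.05, with 3800 (26.7%) at higher levels in KO and 3713 (26.1%) at lower levels. Scaled by library totals alone, the split was 4678 higher and 2870 lower, with the median of all genes at 0.081 on the log2 scale.

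Among the 11 tested mitochondrial genes, 5 mRNAs rose in KO, 1 mRNA fell, and 1 mRNA, both rRNAs and both tRNAs did not pass. The 5 that rose were mt-Nd1, mt-Nd2, mt-Nd4 and mt-Nd5 of complex I and mt-Cytb of complex III, by 1.44 to 2.07 times. mt-Co1 of complex IV, the most abundant, fell by 19.0%. The share called, 6 of 11, is near that of all genes (52.9%), while the median log2 fold change was 0.71 for the 7 mRNAs and 0.37 for all 11 genes, against 0.00697 over all tested genes. All 6 calls kept their direction and passed under each of 16 alternative settings, among them the fit without WT replicate 1. In bulk RNA, fewer cells of a type and less RNA per cell cannot be told apart.

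**Figure D2:**
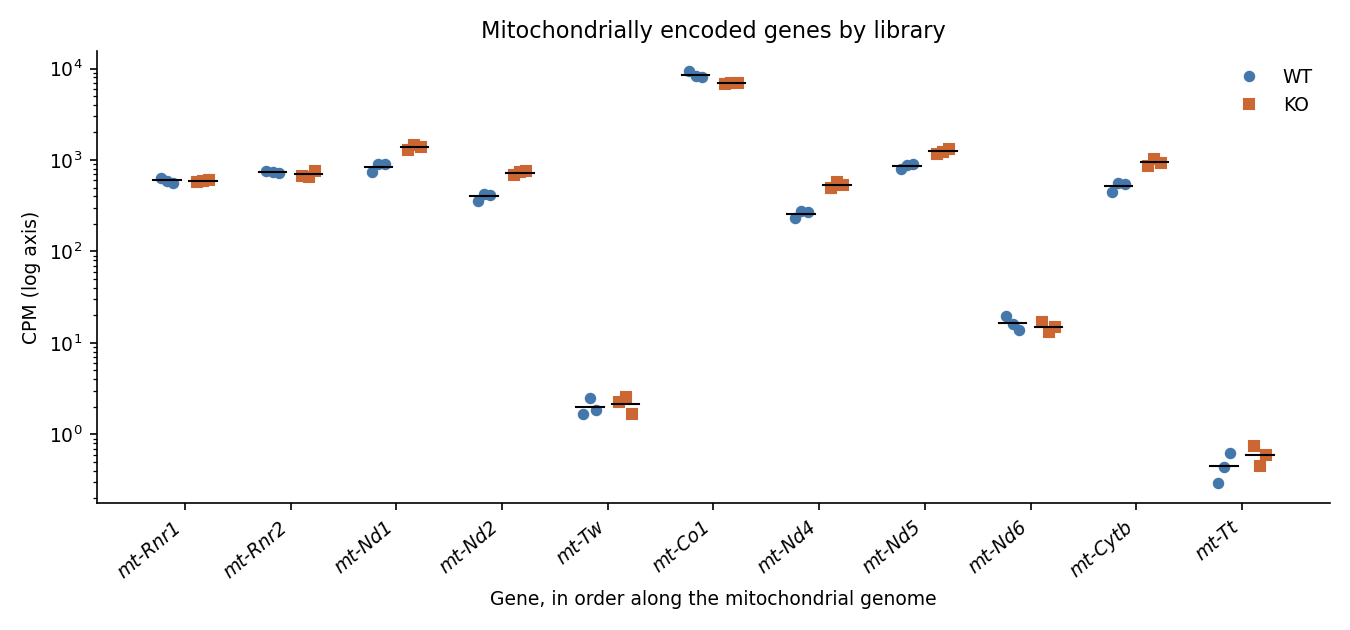
CPM (TMM-scaled, log axis) of the 11 tested mitochondrial genes in each library, in order along the genome (circles WT, squares KO, lines group means). The genotypes do not overlap for mt-Nd1, mt-Nd2, mt-Nd4, mt-Nd5, mt-Cytb and mt-Co1, and overlap for the other 5. The share of all tested genes without overlap was not computed, so the separation adds nothing to the calls.

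Complex I takes electrons from NADH and pumps protons; its 7 mitochondrially encoded subunits form the core of the membrane arm. mt-Nd4 (chrM:10167-11544), a pump subunit, showed the largest fold change of the tested set. Its values were 232.0, 275.7 and 271.5 CPM in WT and 494.8, 580.3 and 539.5 CPM in KO. Every KO library was above every WT library, and the lowest KO value was well above the highest WT value. The log2 fold change was 1.05 ± 0.08 (SE; 2.07-fold; adjusted p = 2.28e-05, edgeR), and 0.97 without WT replicate 1.

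mt-Nd2 (chrM:3914-4951), another pump subunit, had 357.4, 429.8 and 418.5 CPM in WT and 686.6, 740.4 and 756.5 CPM in KO. The groups were again apart, with WT replicate 1 the lowest library. Its log2 fold change was 0.86 ± 0.07 (SE; 1.81-fold; adjusted p = 2.99e-05, edgeR), and 0.78 without that library.

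mt-Nd1 (chrM:2751-3707) sits at the joint between the membrane arm and the peripheral arm, where quinone is bound. It stood at 731.6, 911.2 and 897.5 CPM in WT and 1286, 1466 and 1397 CPM in KO. KO values did not overlap those of WT. The log2 fold change was 0.71 ± 0.08 (SE; 1.63-fold; adjusted p = 0.000110, edgeR), and 0.61 without WT replicate 1.

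mt-Nd5 (chrM:11742-13565), the pump subunit at the far end of the membrane arm, had 804.2, 887.2 and 901.4 CPM in WT and 1177, 1232 and 1313 CPM in KO. It showed the smallest of the 5 rises, 0.52 ± 0.06 on the log2 scale (SE; 1.44-fold; adjusted p = 8.68e-05, edgeR), with no overlap of the groups. Without WT replicate 1 the change was 0.47.

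mt-Nd6 (chrM:13552-14070) is the complex I mRNA read from the other strand. Its 19.5, 15.94 and 13.7 CPM in WT and 17.02, 13.12 and 15.06 CPM in KO overlapped, and WT replicate 1 was the highest library. The log2 difference was -0.11 ± 0.13 (SE; adjusted p = 0.504, edgeR) and took the opposite sign, 0.03, without WT replicate 1. With 407 to 608 counts per library, mt-Nd6 was measured with fewer reads than the other tested mRNAs. The strand setting of the counting is not given, so reads of mt-Nd6 and of antisense RNA at the same place may not be separated. mt-Nd3 and mt-Nd4l, the remaining complex I mRNAs, gave no comparison.

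Complex III passes electrons from quinol to cytochrome c, and mt-Cytb (chrM:14145-15288) encodes cytochrome b, its haem-carrying core in the membrane. mt-Cytb stood at 449.7, 559.0 and 551.6 CPM in WT and 856.4, 1027 and 938.5 CPM in KO. All KO libraries lay above all WT libraries. The log2 fold change was 0.85 ± 0.09 (SE; 1.81-fold; adjusted p = 6.80e-05, edgeR), and 0.76 without WT replicate 1.

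Complex IV reduces oxygen, and mt-Co1 (chrM:5328-6872) encodes its catalytic subunit. Its values were 9320, 8180 and 8007 CPM in WT and 6839, 6942 and 6880 CPM in KO. The KO libraries were close together and all below WT, whose highest value was again replicate 1. The log2 fold change was -0.30 ± 0.06 (SE; adjusted p = 0.00122, edgeR), and -0.23 with adjusted p = 2.08e-05 without WT replicate 1. mt-Co2 and mt-Co3 were listed at 0, so mt-Co1 alone stood for complex IV, and no mRNA of complex V was read.

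**Figure D3:**
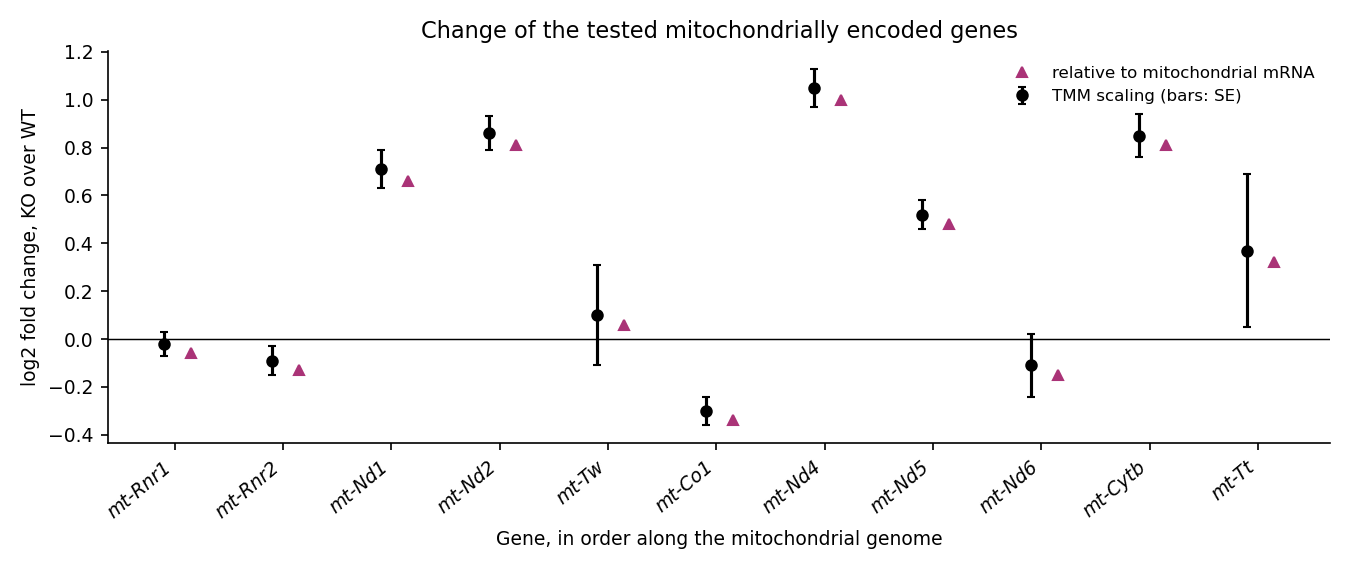
Log2 fold change of KO over WT for the 11 tested mitochondrial genes in order along the genome; circles with SE bars are scaled over all genes by TMM, triangles use the summed mitochondrial mRNA of each library as its size. The 5 mRNAs that rose stay above 0 and mt-Co1 below 0 on both scales. The summed mRNA is mostly mt-Co1 and moves every gene by a similar small step, so the triangles are no separate check.

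The ends of these mRNAs show how closely the genome is packed. The annotated mt-Nd4 and mt-Cytb end in a lone T, which polyadenylation turns into a stop codon. The other annotated genes shown end in a complete one. In mt-Nd1 and mt-Nd2, however, the last 2 bases are also the first 2 of mt-Ti and mt-Tw. Excision of the tRNA may thus leave these mRNAs with a lone T as well, and where the cut falls was not examined. Capitals mark the last codon or what the genome holds of it in the last 30 bases of each changed mRNA.
mt-Nd1, chrM:3678-3707: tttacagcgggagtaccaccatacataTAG
mt-Nd2, chrM:4922-4951: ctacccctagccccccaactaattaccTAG
mt-Co1, chrM:6843-6872: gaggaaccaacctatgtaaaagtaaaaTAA
mt-Nd4, chrM:11515-11544: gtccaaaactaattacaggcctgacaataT
mt-Nd5, chrM:13536-13565: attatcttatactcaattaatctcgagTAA
mt-Cytb, chrM:15259-15288: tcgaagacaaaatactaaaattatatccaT

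The rRNAs of the mitochondrial ribosome are transcribed ahead of the mRNAs of the same strand. Libraries were made with a kit that selects poly(A) RNA, and mitochondrial rRNAs carry only short A tails, so the counts measure what that selection kept. mt-Rnr1 (chrM:70-1024), the small rRNA, had 642.1, 591.5 and 566.4 CPM in WT and 581.0, 584.2 and 611.3 CPM in KO. mt-Rnr2 (chrM:1094-2675), the large rRNA, had 766.3, 734.2 and 712.9 CPM in WT and 664.1, 657.5 and 762.6 CPM in KO. In both, the genotypes overlapped, and WT replicate 1 was the highest library.

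Neither rRNA passed the test. For mt-Rnr1 the log2 difference was -0.02 ± 0.05 (SE; adjusted p = 0.783, edgeR) and 0.03 without WT replicate 1. It was 0.06 when libraries were scaled by their totals alone and 0.00 with upper quartile factors, scalings that put the median of all genes at 0.081 and 0.028. For mt-Rnr2 it was -0.09 ± 0.06 (SE; adjusted p = 0.252, edgeR) and -0.06 without WT replicate 1. Without KO replicate 3, the KO library with the highest mt-Rnr2, the difference was -0.16 and passed, with adjusted p = 0.0398. As a reading of carry-over, 8 nuclear RNAs that lack a poly(A) tail summed to 4.85 to 5.79 CPM in WT and 4.79 to 5.71 CPM in KO. None of the 3 tested among these 8 passed, and 3 others were listed at 0.

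Transfer RNAs are short and gave few counts, and all 22 together took 0.0003254% of counts in WT and 0.0003378% in KO. Only mt-Tw (tryptophan; chrM:4950-5016) and mt-Tt (threonine; chrM:15289-15355) were tested, and beyond these mt-Ti (isoleucine; chrM:3706-3774), reached 10 counts in a library. mt-Tw and mt-Ti each overlap the mRNA before them by 2 bases, and mt-Ti overlaps mt-Tq on the other strand by 3. The gene sequences follow, with the bases shared with a neighbouring gene in capitals, since a read of the neighbour's end can touch them.
mt-Tw: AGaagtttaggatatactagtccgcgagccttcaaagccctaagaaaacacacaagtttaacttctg
mt-Tt: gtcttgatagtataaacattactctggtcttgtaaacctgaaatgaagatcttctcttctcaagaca
mt-Ti: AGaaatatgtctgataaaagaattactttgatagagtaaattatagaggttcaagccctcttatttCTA

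mt-Tw had 39, 74 and 58 counts in WT and 81, 79 and 56 in KO, with a log2 difference of 0.10 ± 0.21 (SE; adjusted p = 0.696, edgeR), and 0.00 without WT replicate 1. mt-Tt had 7, 13 and 20 counts in WT and 27, 14 and 20 in KO, with a log2 difference of 0.37 ± 0.32 (SE; adjusted p = 0.361, edgeR). It ran from 0.16 without KO replicate 1 to 0.69 without WT replicate 3, with 0.17 without WT replicate 1, and passed in none of the 6 fits that left out a library. mt-Ti had 16, 9 and 11 counts in WT and 6, 6 and 9 in KO. Counts of this size leave wide errors, and genotypes overlapped in CPM for mt-Tw and mt-Tt. Too low for the main fit, mt-Ti entered 4 of the 6 fits that left out a library, and passed as lower in KO in the fit without WT replicate 2 (log2 difference -1.22, adjusted p = 0.0425) and in no other. The other 8 tRNA genes with counts had at most 9 in any library.

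Per kilobase of gene length, mt-Co1 was the highest tested mitochondrial RNA in WT, at 5500 ± 461 CPM per kb (SD, n = 3). It was followed by mt-Nd1 at 885 ± 104 and mt-Rnr1 at 628 ± 40.4. The mRNAs from mt-Co2 to mt-Nd4l had almost no counts and have no place in this order. mt-Nd5 (474 ± 28.8), mt-Rnr2 (466 ± 17.0) and mt-Cytb (455 ± 53.4) came next and did not differ beyond their spread. They were followed by mt-Nd2 at 387 ± 37.6, mt-Nd4 at 188 ± 17.5 and mt-Nd6 at 31.6 ± 5.63 CPM per kb. In KO the order was mt-Co1 (4460 ± 33.6), mt-Nd1 (1450 ± 95.1), mt-Cytb (822 ± 74.5), mt-Nd2 (701 ± 35.3) and mt-Nd5 (680 ± 37.5 CPM per kb). mt-Rnr1 (620 ± 17.5), mt-Rnr2 (439 ± 37.2), mt-Nd4 (391 ± 31.0) and mt-Nd6 (29.0 ± 3.76 CPM per kb) followed. Both rRNAs thus ranked below mt-Cytb and mt-Nd2 in KO, and mt-Nd2 and mt-Nd5 lay within their spread of each other. The rRNA levels are those that poly(A) selection kept, so their rank is not one of true abundance.

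The place of mt-Nd4 in that order changes when the length is counted in 100-base runs that occur in no other transcript. On that scale mt-Nd4 stood at 517 CPM per 1000 unshared runs in WT, beside mt-Nd5 at 501, mt-Cytb at 498, mt-Rnr2 at 497 and mt-Nd2 at 442. In KO, mt-Nd4 was at 1070, above mt-Cytb (900), mt-Nd2 (801) and mt-Nd5 (719), with mt-Nd1 at 1610. mt-Co1 stayed highest, at 8500 in WT and 6890 in KO per 1000 unshared runs of 100 bases, and at 11600 and 9420 with runs of 50 bases. mt-Nd4 was at 517 and 1070 with either length. Which reads of mt-Co1 and mt-Nd4 were counted is not known, so neither scale is exact for this pair.

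Mitochondrial genes together took 1.265%, 1.24% and 1.22% of counts in WT and 1.297%, 1.359% and 1.355% in KO. These are shares of counted reads only: 6 of the mRNAs held 2 counts in all, so the totals do not measure all mitochondrial RNA. The KO libraries were all above WT, by 1.08 times on the mean (exact permutation test, 2-sided, p = 0.1, the smallest that 3 against 3 libraries allow). On TMM-scaled totals the groups overlapped, with 1.275% ± 0.0511 in WT and 1.302% ± 0.0362 in KO (SD, n = 3; exact permutation p = 0.6). Inside these totals mt-Co1 alone made up most of the mitochondrial counts and moved against the others that changed. Without mt-Co1, a setting added after seeing the data, the share was 0.3803%, 0.4341% and 0.4287% in WT and 0.5932%, 0.6466% and 0.6496% in KO, a ratio of 1.52.

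Within mitochondrial counts, complex I made up 16.09%, 20.02% and 20.27% in WT and 29.04%, 30.44% and 30.42% in KO. Complex III, which is mt-Cytb, made up 3.374%, 4.441% and 4.469% in WT and 6.794%, 7.751% and 7.102% in KO. Complex IV, which is mt-Co1, fell from 69.94%, 64.98% and 64.87% to 54.26%, 52.41% and 52.06% with no overlap. For each of these 3 classes the exact permutation test, 2-sided, gave p = 0.1, the smallest possible, and 0.167 after adjustment over the classes. Without WT replicate 1 the difference of KO from WT was 9.82 percentage points for complex I (11.17 with it), 2.76 for complex III (3.12) and -12.02 for complex IV (-13.69). The rRNA share overlapped, with 10.49% ± 0.109 in WT and 9.882% ± 0.511 in KO (SD, n = 3; exact permutation p = 0.2, adjusted 0.25). Its difference, -0.61 percentage points, was -0.35 without KO replicate 2 and -0.56 without WT replicate 1. Shares add up to a fixed total, so a lower share of mt-Co1 raises the rest by itself. They also describe counted reads only, with mt-Co2, mt-Co3, mt-Nd4l and both mRNAs of complex V at 0, and are not the true make-up by complex.

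**Figure D4:**
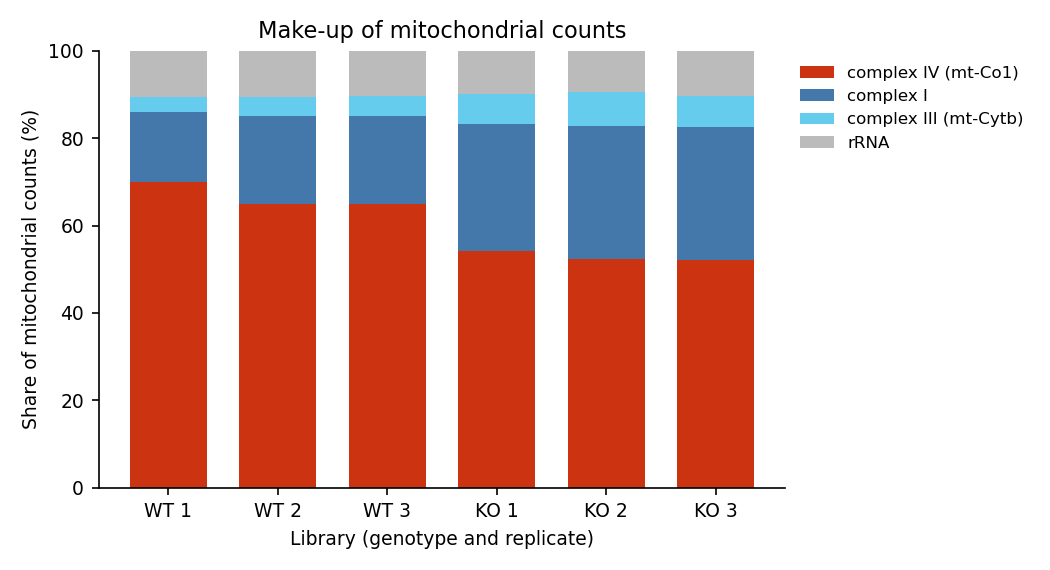
Share of all mitochondrial counts (percent) taken by complex IV, complex I, complex III and rRNA in each library; tRNAs, at most 0.02864%, are too small to see. In the KO bars, complex IV is smaller and complex I larger than in every WT bar, while rRNA is similar in all 6. The mRNAs from mt-Co2 to mt-Nd4l, complex V among them, had almost no counts and are not represented.

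Scaled to the summed mitochondrial mRNA of each library instead of to all genes, mt-Nd4 (log2 fold change 1.00), mt-Nd2 (0.81), mt-Cytb (0.81), mt-Nd1 (0.66) and mt-Nd5 (0.48) were still higher in KO. mt-Co1 was lower, at -0.34 (adjusted p = 3.61e-05, edgeR). mt-Nd6 (-0.15), mt-Rnr1 (-0.06) and mt-Rnr2 (-0.13, adjusted p = 0.0909) did not pass on that scale. The pattern in the plot of fold changes had the same signs on both scales. Most of the mRNA sum is mt-Co1 itself: the mRNA share of counts in WT was 1.111% with it and 0.2838% without. The median of all genes moved only from 0.00697 to -0.035 on this scale. So small a step, much the same for every gene, cannot turn the signs of the calls, and the scale is no separate check of them.

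Ratios of counts inside a library need no scaling, and 8 were computed, chosen after the values were seen. mt-Nd4 over mt-Co1 was 0.0249, 0.0337 and 0.0339 in WT and 0.0724, 0.0836 and 0.0784 in KO, or 2.53 times higher on the mean. mt-Nd4 over mt-Nd5, neighbours on the strand that are parted by 3 tRNA genes, was 0.288, 0.311 and 0.301 in WT and 0.42, 0.471 and 0.411 in KO. The ratio of mt-Cytb to mt-Nd1 was steady within WT, at 0.615, 0.614 and 0.615, and was 0.666, 0.7 and 0.672 in KO.

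The strands and the RNA classes can be set against each other in the same way. mt-Cytb over mt-Nd6, from opposite strands, was 23.1, 35.1 and 40.3 in WT and 50.3, 78.3 and 62.3 in KO. mt-Nd1 over mt-Rnr2, an mRNA and the rRNA before it, was 0.955, 1.24 and 1.26 in WT and 1.94, 2.23 and 1.83 in KO. mt-Rnr2 over mt-Rnr1 overlapped, at 1.19, 1.24 and 1.26 in WT and 1.14, 1.13 and 1.25 in KO (exact permutation p = 0.3). The other 7 ratios did not overlap between genotypes (exact permutation p = 0.1 each, adjusted 0.114 over 8 ratios). How often ratios of other genes are without overlap was not computed. In mt-Cytb over mt-Nd6, WT replicate 1 was again the lowest library. Without that library, the KO mean over the WT mean was 2.31 for mt-Nd4 over mt-Co1, 1.69 in place of 1.94 for mt-Cytb over mt-Nd6, and 1.60 in place of 1.74 for mt-Nd1 over mt-Rnr2.

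The nuclear genes that make, process and protect mitochondrial RNA were read from lists written from general knowledge. Earlier results of these data were known when the lists were chosen, so their shares of rises are descriptive and no independent test. Of 10 tested genes for transcription of mitochondrial DNA, 4 rose, 0 fell and 6 did not pass, with a median log2 fold change of 0.24, beside 26.7% rising and a median of 0.00697 over all genes. Polrmt, the polymerase, went from 26.1 ± 2.38 to 34.1 ± 2.28 CPM (SD, n = 3; log2 fold change 0.38 ± 0.08 SE; adjusted p = 0.00248, edgeR). Tfam, which packs the DNA and starts transcription, rose by less, 0.20 ± 0.06 (SE; adjusted p = 0.0213, edgeR), from 58.3 to 66.9 CPM. Tefm, the elongation factor, rose by 0.51 ± 0.13 on the log2 scale. Tfb2m, named above with POLRMT and TFAM, did not pass (-0.16 ± 0.14 SE, adjusted p = 0.364, edgeR), and its value is added here after it was seen.

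Among the 10 tested genes that copy mitochondrial DNA there were 4 rises and 3 falls, with a median of 0.04. Over all genes, 26.7% rose and 26.1% fell. Rnaseh1, which removes RNA from RNA-DNA hybrids, rose from 17.5 to 24.9 CPM, and Top1mt, the mitochondrial topoisomerase, rose by 0.57 ± 0.10 (SE) on the log2 scale. Primpol, a primase-polymerase that restarts stalled copying, fell from 176 to 131 CPM (log2 fold change -0.43 ± 0.07 SE; adjusted p = 0.000504, edgeR).

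RNA processing and tRNA maturation had 17 tested genes, with 11 that rose, 0 that fell and a median of 0.36. Rises made up 64.7%, beside 26.7% rising and 26.1% falling over all genes. Elac2, which cuts tRNAs at their 3′ ends, went from 37.1 ± 4.63 to 61.2 ± 2.71 CPM (SD, n = 3; log2 fold change 0.72 ± 0.08 SE; adjusted p = 0.000114, edgeR). Pus1, which makes pseudouridine in tRNAs, rose from 38.1 to 56.4 CPM, and Rnmtl1, a methyltransferase of the large rRNA, from 4.15 to 7.78 CPM.

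For mRNA stability, polyadenylation and decay, 9 of 15 tested genes rose and 1 fell, with a median of 0.39. Lrpprc, which protects mitochondrial mRNAs, had 72.34, 81.1 and 78.64 CPM in WT and 111.9, 133.4 and 119.0 CPM in KO. Those groups did not overlap, and the log2 fold change was 0.65 ± 0.07 (SE; adjusted p = 9.23e-05, edgeR). Its partner Slirp had a log2 difference of -0.14 ± 0.07 (SE; adjusted p = 0.0945, edgeR) and the poly(A) polymerase Mtpap of -0.08 ± 0.07 (adjusted p = 0.329, edgeR), so neither passed.

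The same list holds genes of RNA turnover and of the FASTK family of mitochondrial RNA-binding proteins. Pnpt1, the exonuclease of the mitochondrial degradosome, rose from 62.3 to 81.3 CPM, and Rexo2, which clears very short RNAs, from 43.4 to 69.2 CPM. Fastkd1 rose from 14.2 to 24.5 CPM and Tbrg4 (also called FASTKD4) from 56.4 to 88.1 CPM. Grsf1, of the mitochondrial RNA granule, was the member that fell, from 134 to 113 CPM (log2 fold change -0.24 ± 0.06 SE; adjusted p = 0.00479, edgeR); it is named here as the exception, after its value was seen.

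Nuclear core subunits of complex I and nuclear subunits of complex III moved by less than the mitochondrial mRNAs of the same complex that rose. Of 7 core complex I subunits 4 rose and 1 fell (median 0.16), of 9 complex III subunits 7 rose and 1 fell (median 0.24), of 11 complex IV subunits 4 rose and 0 fell (median 0.11), and of 16 complex V subunits 8 rose and 0 fell (median 0.11). Ndufv1 and Ndufs1, of the NADH-oxidising arm of complex I, had log2 fold changes of 0.31 ± 0.05 and 0.27 ± 0.05 (SE). Uqcrc1 (0.39 ± 0.05) and Cyc1 (0.41 ± 0.05), core subunits of complex III, rose beside mt-Cytb. For complex IV, Ndufa4 went from 82.3 to 112 CPM (log2 fold change 0.45 ± 0.06 SE) and Cox5a from 159 to 192 CPM (0.28 ± 0.05), whereas mt-Co1 fell (-0.30 ± 0.06). Atp5j and Atp5g3 of complex V rose by 0.48 ± 0.05 and 0.40 ± 0.05 on the log2 scale. Over all 8 lists, 51 of 95 tested genes rose, 6 fell and 38 did not pass, beside 26.7% rising and 26.1% falling over all genes. Without WT replicate 1, 52 rose and 7 fell, among them all 57 called with it, in the same direction.

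**Figure D5:**
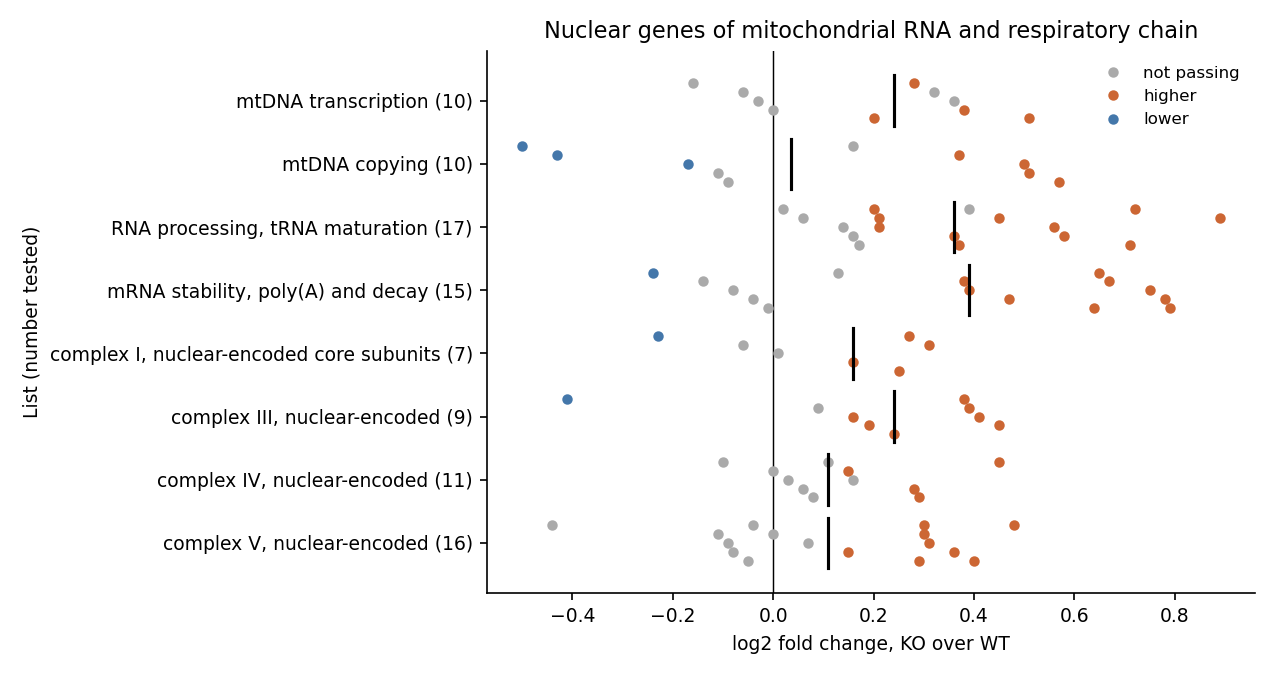
Log2 fold change of KO over WT for each tested nuclear gene in 8 lists, with black lines at list medians and colour for higher, lower or not passing at an adjusted p of 0.05. Medians run from 0.04 for copying of mitochondrial DNA to 0.39 for mRNA stability, polyadenylation and decay.

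Markers of the labelled cell type and of others moved between the groups as well. Their calls stand beside 26.7% of all tested genes higher and 26.1% lower. The 8 T cell markers were all read, with a summed level of 3220 to 3260 CPM in WT and 2900 to 2930 CPM in KO, 6 of them lower and 1 higher. NK cell markers summed to 15.9 to 22.9 CPM in WT and 33.6 to 40.1 CPM in KO (3 of 3 higher), and megakaryocyte and platelet markers to 7.54 to 9.63 and 19.8 to 22.6 CPM (3 of 3 tested higher). Most of the NK sum was Eomes, with means of 18.5 CPM in WT and 32.8 in KO. Klrb1c had 1.2 and 2.38 CPM and Ncr1 0.181 and 0.634, so the sum follows 1 gene. Mast cell and basophil markers summed to 54.8 to 62.8 CPM in WT and 29.9 to 31.9 CPM in KO, with 3 of 4 higher and Kit lower. This sum follows Kit, with means of 57.7 CPM in WT and 24.6 in KO. The others ran against it: Cpa3 had 0.695 and 3.19 CPM, Mcpt8 0.43 and 1.88, and Ms4a2 0.387 and 1.58. B cell markers (143 to 156 against 142 to 151 CPM) and myeloid markers (3.83 to 4.38 against 3.06 to 4.03 CPM) overlapped in their sums. Single members passed nonetheless, named after their values were seen: Ms4a1 of 5 B cell markers was higher (log2 fold change 0.20), and of 2 tested myeloid markers Lyz2 was higher (1.36) and Itgam lower (-0.44). The 5 erythroid markers, of which 1 was at 0, summed to 0.383 to 0.805 CPM in WT and 1.32 to 1.82 CPM in KO. The part of these cell types in the mitochondrial differences was not tested.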

How the data were processed

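The authors deposited raw counts for each gene symbol, 1 column per library; per the submitters' processing notes FastQC, STAR 2.5.2, HTSeq 0.6.1, DESeq2 1.12, Cufflinks and the mm10 genome were used, with no roles given. Per the labels' protocols the kit was a stranded mRNA kit. Read length, strand setting, annotation release and treatment of reads with several matches are not stated in the sources used here.

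Groups and replicate numbers came from the sample titles. The test was edgeR 4.0.16 in R 4.3.3 (TMM factors 0.949 to 1.03, filterByExpr, quasi-likelihood F test of KO against WT, Benjamini-Hochberg over 14209 genes). The filter kept 99.9% of counts. The biological coefficient of variation was 6.13%, with 4 residual degrees of freedom. CPM use the TMM factors, SD is over 3 libraries, and SE is the size of the log2 fold change over the root of F. In the table, 21769 rows were 0 in all libraries and 27 symbols had become dates. The procedure was tested on simulated data in which only a small part of the genes changed. In these data 52.9% of tested genes were called, a setting that the simulation did not cover.

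Mitochondrial transcripts of GENCODE M21 were compared with all other annotated transcripts by exact runs and by blastn 2.17.0 (at least 200 bases and 90% identity). Positions equal RefSeq's for 37 of 37 genes. Other tools were Python 3.11.15, scipy 1.17.1, pandas 2.3.3 and matplotlib 3.10.9.

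Every mt- row was accounted for. Tested rows, all mRNAs and rRNAs, and tRNAs with at least 10 counts in a library were named. For nuclear lists, Polrmt, Tfam, Lrpprc, Slirp, Mtpap, Pnpt1 and the 3 genes with the smallest adjusted p per RNA or DNA list (2 per complex) were named, as were copies with at least 10 counts in a library. The mt- set and the lists were chosen with earlier results of these data known.

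Alternatives were DESeq2 1.42.0 and its size factors, limma-voom (limma 3.58.1), other scalings and filters, an adjusted p under 0.01, the replicate number as a block, and each library left out. 2 more, added after seeing the data, changed the mitochondrial share by leaving out mt-Co1 or adding nuclear copies. Count ratios, Dnm1l and nuclear genes without WT replicate 1, and levels per unshared run of 50 bases, were added then too.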

Additional observations from a re-analysis of the deposited data

How the results depend on the processing

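The 6 mitochondrial calls passed in the same direction under all 16 alternatives: mt-Nd4 at 0.97 or above, mt-Nd2 between 0.78 and 0.93, mt-Cytb 0.76 and 0.93, mt-Nd1 0.61 and 0.78, mt-Nd5 0.47 and 0.60, and mt-Co1 -0.35 and -0.23 on the log2 scale. The number called lower ran from 1 to 2 when a library was left out (2 without KO replicate 3, where mt-Rnr2 passed, and without WT replicate 2, where mt-Ti did). With a library left out, mt-Nd6 ran from -0.23 to 0.03, mt-Rnr1 from -0.06 to 0.03, mt-Tw from -0.02 to 0.29, mt-Tt from 0.16 to 0.69, and the rRNA share difference from -0.86 to -0.35 percentage points. mt-Rnr1 was also 0.06 with library totals and 0.00 with upper quartile factors, which moved the median of all genes from 0.007 to 0.081 and 0.028. The log2 ratio of the mitochondrial share, 0.106, became 0.031 on TMM-scaled totals and 0.605 without mt-Co1. Without mt-Co1 the complex I difference of 11.17 percentage points became 7.5 and the rRNA difference of -0.61 became -10.58, since the total then lacks that gene. Over all genes, 2733 were higher and 2636 lower at an adjusted p under 0.01. Low counts limit the tRNAs most, and what keeps these counts low was not tested. To look for pairing, the group mean of each gene in log2 CPM was taken off every library. The deviations left in same-numbered WT and KO libraries correlated at 0.174, 0.125 and 0.0112. The last is too low for the numbers to be taken as pairs, and not every library's deviations correlated best with its own number. With the replicate block, 3992 genes were higher and 3908 lower, and the mitochondrial calls stayed at 5 higher and 1 lower.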
